A study of Mus musculus with 6 samples.

Results

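Vascular smooth muscle cells (VSMCs) of the mouse cerebrum were taken from single-cell libraries by the transcripts they carried. A cell was counted as a VSMC when it held at least 10 unique molecular identifiers (UMIs, each standing for 1 captured transcript) of *Acta2*, *Tagln*, *Myh11*, and *Myl9* together, at most 3 UMIs of the endothelial genes *Cldn5* and *Flt1*, and 0 of the microglial genes *Cx3cr1*, *Aif1*, and *Csf1r*. This gave 2388 VSMCs among 44112 cells in which 500 to 4500 genes were detected and mitochondrial UMIs stayed below 10%, out of 49059 deposited barcodes. The members were thus chosen by the measured UMIs of these 9 genes, so their high contractile gene levels are a description and not a finding.

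The 6 male mice were untreated and 12 months old, and comprised 3 C57Bl6 wild-type (WT) mice and 3 mice of the Alzheimer model labelled AppArcSwe, written TgAppArcSwe here. This model carries a mutated App transgene and deposits amyloid-β in brain tissue and in vessel walls, and its promoter was not given in the sources used here. From 1 cerebral hemisphere of each mouse, vessel fragments were bound to beads with CD31 antibody, dissociated into single cells, and captured as 1 droplet library per mouse. The VSMC values therefore concern smooth muscle that stayed attached to endothelial fragments.

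VSMCs wrap arteries, arterioles, and veins and set their diameter. Calcium entering the cell or released from its store activates myosin light chain kinase (*Mylk*), myosin (*Myh11*) then pulls on smooth muscle actin (*Acta2*), and phospholamban (*Pln*) restrains the pump that returns calcium to the store. Pericytes, the other mural cell, cover capillaries, share *Notch3* and *Pdgfrb* with VSMCs, and carry little of the contractile apparatus. Myocardin (*Myocd*) and serum response factor (*Srf*) switch on many contractile genes through the CArG box, a DNA element made of CC, 6 letters that are A or T, and GG.

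Stretches of the promoters of *Acta2*, *Myl9*, and *Vcl* (vinculin, which links actin to the membrane) are shown because they hold this element, or one like it, before genes of the contractile list, with the element in capitals. They are written 5′ to 3′ along each gene, from RefSeq on GRCm38.p6. The *Acta2* stretch is chr19:34255383-34255483 on the minus strand, the *Myl9* stretch is chr2:156775264-156775344 on the plus strand, and the *Vcl* stretch is chr14:20929148-20929218 on the plus strand.
Acta2: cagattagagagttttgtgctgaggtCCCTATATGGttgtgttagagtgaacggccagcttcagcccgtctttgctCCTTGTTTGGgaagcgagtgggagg
Myl9: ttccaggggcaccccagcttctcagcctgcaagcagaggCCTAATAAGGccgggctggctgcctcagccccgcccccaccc
Vcl: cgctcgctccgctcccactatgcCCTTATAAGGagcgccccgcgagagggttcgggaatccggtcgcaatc
The elements of *Myl9* and *Vcl* matched the CArG box in full and began 161 and 227 bases before the start of the gene. Both elements of *Acta2*, 84 and 34 bases before the start, differed from it by 1 letter. In windows of 250 bases before to 50 bases after the start, searched on both strands, a full match was found in 4 of 25 contractile genes with an entry (16%: *Ldb3*, *Myl6*, *Myl9*, and *Vcl*) and in 488 of 27025 genes in all (1.81%). With at most 1 mismatch the counts were 10 of 25 (40%) and 6419 of 27025 (23.8%). *Tagln* and *Myh11* had no entry. A match describes the letters of the window and is not a measured binding site.

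The 3 WT libraries gave 431, 342, and 455 VSMCs and the 3 TgAppArcSwe libraries gave 398, 172, and 590. Summed over these cells, each mouse contributed between 1328671 and 2608260 UMIs, and the median VSMC held between 4243 and 7704.5 UMIs. Of the barcodes of VSMCs, 1 occurred in more than 1 library, as did 235 of those of all filtered cells. The libraries called WT 3 and TgAppArcSwe 3 stood apart before any comparison. In these 2 libraries the microglial limit removed 35.6% and 40.0% of the cells that met the contractile and endothelial limits, compared with 25.3% in TgAppArcSwe 1 and 11.9%, 12.1%, and 12.2% in WT 1, WT 2, and TgAppArcSwe 2. Their VSMCs also held the most haemoglobin UMIs, with erythroid marker sums of 268 and 475 CPM (counts scaled to the same total in each sum) and 12.0 to 52.3 CPM in the other 4. TgAppArcSwe 2 had the fewest and deepest VSMCs.

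The labels were checked first. In VSMCs *App* lay between 269 and 322 CPM in all 6 mice (log2 fold change 0.03 ± 0.12 SE, edgeR adjusted p = 1.000), and App was counted with the mouse reference, so transcripts of a human transgene need not be counted in it. *Xist*, a transcript of the inactive X chromosome in females, reached at most 0.465 CPM and the Y-linked *Ddx3y* lay between 97.5 and 172 CPM, as in males. The defining VSMC genes were high in every library. Those of other cells were low but present, since the sums of 10 endothelial genes reached 93.5 to 248 CPM and those of 10 microglial genes 138 to 650 CPM, with *Aif1*, *Csf1r*, and *Cx3cr1* at 0 by the rule. The sums of 8 fibroblast genes were 357 to 505 CPM, and those of 5 choroid plexus genes, mostly *Ttr*, were 768 and 328 CPM in WT 3 and TgAppArcSwe 3 and 33.3 to 120 CPM in the others.

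VSMCs carried many genes of the contractile apparatus, though not all, at higher levels than pericytes of the same libraries. The pericytes were the 277 filtered cells with at least 5 UMIs of *Vtn*, *Kcnj8*, *Abcc9*, and *Atp13a5* together, fewer than 10 contractile UMIs, and the same endothelial and microglial limits. Levels are CPM of the summed UMIs of a mouse, given as the mean ± SD of 6 mice. UMIs count transcript ends, so no gene length enters. As the limits chose both kinds of cell, the ratios below were not tested.

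*Acta2* reached 12241 ± 764 CPM in VSMCs and 66.5 ± 24.8 CPM in pericytes, a ratio of 184. *Tagln*, which encodes the actin-binding protein transgelin, had a ratio of 214. *Myh11* and *Myl9*, the heavy chain and a light chain of myosin, had smaller ratios of 24.3 and 5.05, since pericytes held 160 CPM of *Myh11* and 991 CPM of *Myl9*. The summed UMIs of these 4 genes had a floor in VSMCs and a ceiling in pericytes by the rule. Among the markers that the rule did not use, *Tpm2*, a tropomyosin that lies along actin, reached 4382 CPM in VSMCs and 263 CPM in pericytes, a ratio of 16.7. *Pln* reached 1195 ± 79.2 CPM and 6.72 ± 12.7 CPM, a ratio of 178 that rests on 5 pericyte UMIs from 2 of the 6 mice. All 6 mice were higher in VSMCs for each of these genes, and the VSMC and pericyte values did not overlap.

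**Figure D1:**
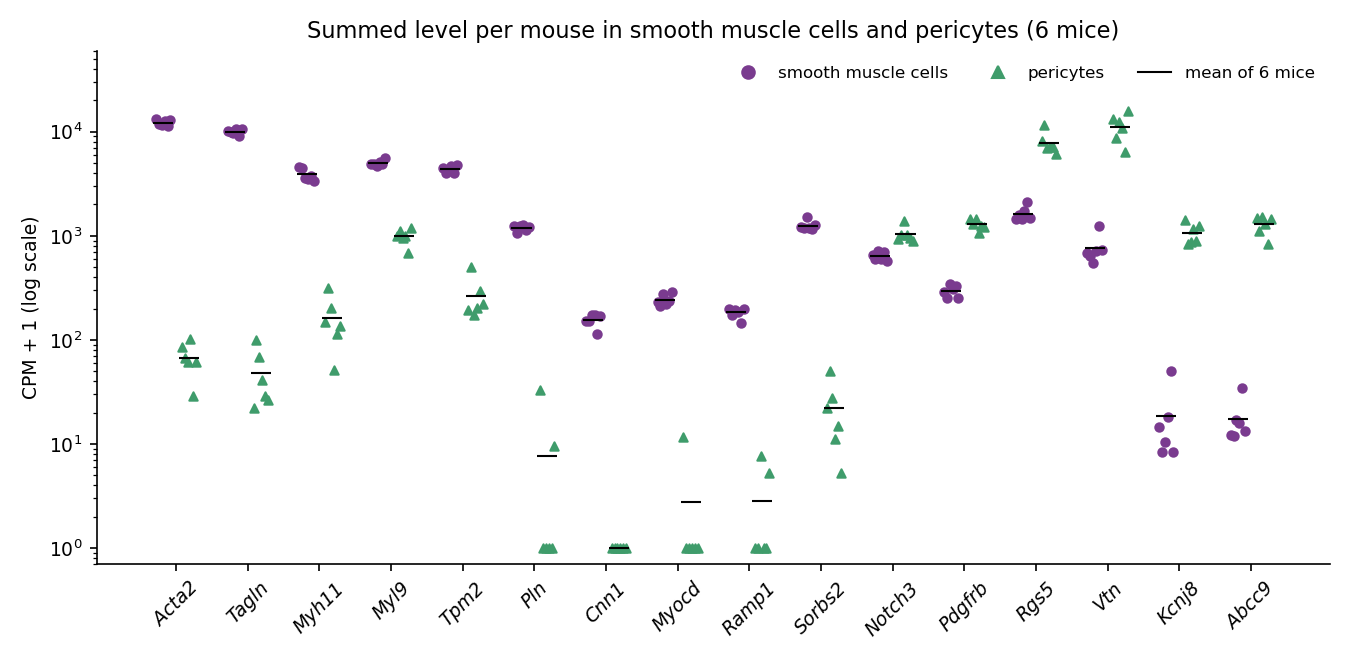
Level of 16 genes in VSMCs (circles) and pericytes (triangles), with each point 1 mouse and the line the mean of 6 mice. The vertical axis is CPM + 1 on a log scale. *Acta2* and *Tagln* are separated by a ratio of 184 and 214, whereas *Notch3* lies close in both cells at a ratio of 0.617.

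Of 2219 genes at 100 CPM or more in either cell, 150 were at least 4 times higher in VSMCs and 174 at least 4 times higher in pericytes, around a median ratio of 0.875. Calponin (*Cnn1*), which binds actin and inhibits myosin, had 1962 UMIs in VSMCs and 0 in pericytes. Set against 3 counts over all pericytes (4.22 CPM), its level of 154 CPM in VSMCs was at least 36.6-fold higher. The prostacyclin synthase gene *Ptgis* was at least 48.7-fold higher in the same way. *Myocd* had 3048 UMIs in VSMCs and 1 in pericytes, a ratio of the pooled levels of 174 (95% exact Poisson interval of the pericyte count, 31.2 to 6868). *Ramp1*, a subunit of the receptor for the dilator peptide CGRP, had 2311 and 2 UMIs, a ratio of 65.9 (18.2 to 544), and the intermediate filament gene *Synm* had 3231 and 2, a ratio of 92.2 (25.5 to 761). These intervals cover counting error only. The sodium pump subunit gene *Atp1b1* (61.8), the actin-scaffold gene *Sorbs2* (59.9), the potassium channel subunit gene *Kcnab1* (53.2), and the BK potassium channel gene *Kcnma1* (32.5) also had large ratios of mean CPM. The remainder of the 20 largest ratios included *Pdlim3*, *Palld*, and *Fbxl22*, whose products sit at actin anchoring sites.

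Several genes of the contractile response were not VSMC-high. The L-type calcium channel gene *Cacna1c*, through which depolarisation admits calcium, lay at 741 CPM in VSMCs and 1045 CPM in pericytes. The endothelin receptor gene *Ednra* lay at 266 and 329 CPM, and the actin-binding genes *Cald1* and *Vcl* had ratios of 0.850 and 1.05. *Notch3*, the receptor that maintains mural cells, had 639 CPM in VSMCs and 1036 CPM in pericytes. Genes with the highest pericyte to VSMC ratio outside the rule were *Fam155a*, with 62 UMIs in pericytes and 2 in VSMCs, *Ggt1* (125), the glutamate receptor gene *Grm3* (103), and *Nodal* (79.0). The K-ATP channel genes *Kcnj8* and *Abcc9*, which the pericyte rule used, had ratios of 60.9 and 78.2.

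Shares of cells with at least 1 UMI were compared after each cell was thinned to 1000 UMIs, which left out 26 VSMCs. As the mean of 6 mice, *Pln* was seen in 61.3% of VSMCs and 0.759% of pericytes (91.5% and 0.851% without thinning) and *Tpm2* in 92.3% and 20.6% (98.7% and 40.2%). *Cnn1* was seen in 12.3% of VSMCs (33.4% without thinning) and *Myocd* in 18.3% (61.1%). Each was seen in 0 of 255 thinned pericytes pooled over the mice, which by counting error alone allows up to 1.18% of such thinned cells with a UMI. Without thinning, pericytes held 1 *Myocd* UMI and 0 of *Cnn1*. The median pericyte held 1997 to 3820 UMIs before thinning, fewer than the median VSMC. *Vtn*, which encodes vitronectin, was seen in 93.3% of pericytes and still in 30.8% of VSMCs (99.3% and 51.5% without thinning).

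The chosen cells were next described by how much of the contractile genes they held. The *Acta2*, *Tagln*, *Myh11*, and *Myl9* UMIs of a cell, as a share of all its UMIs, were under 1% in 158 VSMCs, 1 to 2% in 329, 2 to 3% in 651, 3 to 4% in 705, and 4% or more in 545. *Tpm2* followed this share, at a mean over 6 mice of 791, 2102, 3353, 4774, and 7160 CPM from the lowest range to the highest. *Pln* followed it less steeply, from 488 to 1563 CPM. *Cnn1* was low in the lower ranges, with 11.5, 12.8, 60.6, 177, and 344 CPM, whereas *Myocd* had 270, 306, 264, 225, and 206 CPM. The mural regulator *Rgs5*, a brake on G-protein signals, went the other way, with 5289, 3590, 2033, 830, and 354 CPM, and *Vtn* and *Pdgfrb* had the same order. *Kcnj8* lay at 237 CPM under 1% and at 11.8 CPM or less in every other range.

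**Figure D2:**
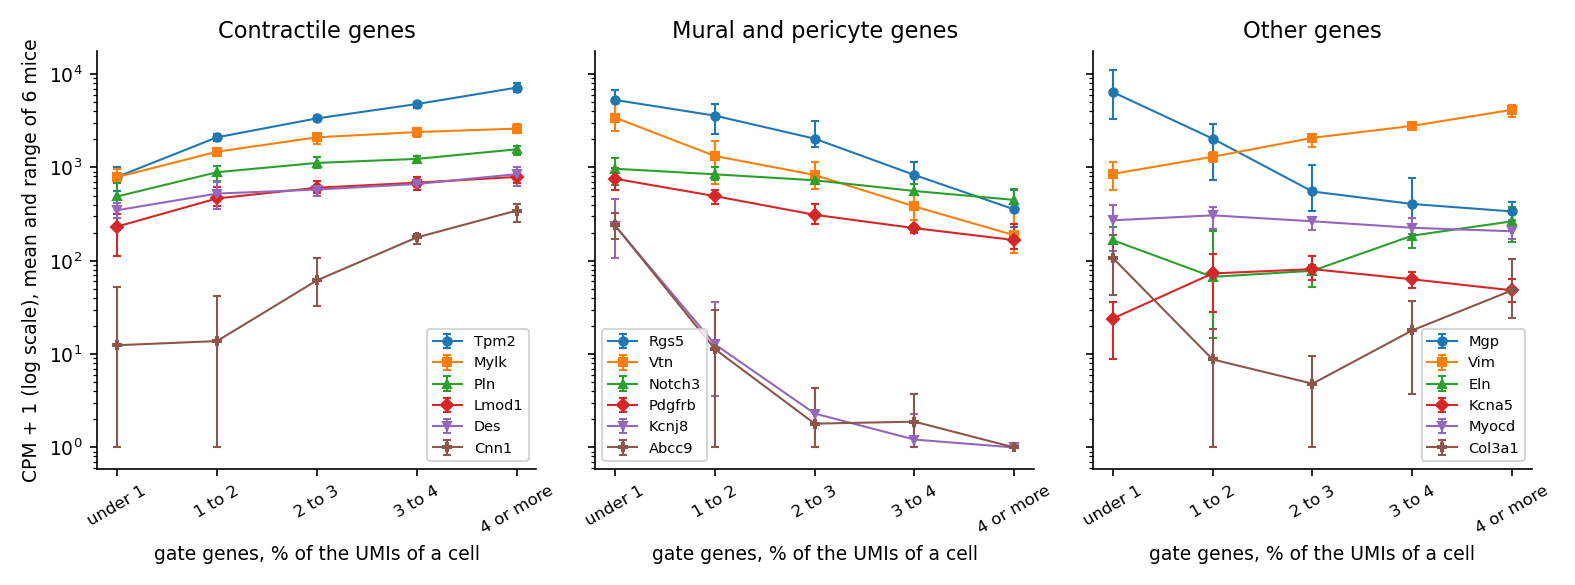
Levels of contractile, mural and pericyte, and other genes in VSMCs split by the share of the 4 gate genes *Acta2*, *Tagln*, *Myh11*, and *Myl9* among the UMIs of a cell. Points are the mean and bars the lowest and highest of 6 mice, in CPM + 1 on a log scale. *Tpm2* goes from 791 to 7160 CPM and *Rgs5* from 5289 to 354 CPM between the ends of the range.

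Matrix genes did not share 1 order over these ranges. Matrix Gla protein (*Mgp*), an inhibitor of calcification in vessel walls, was highest under 1% with 6415 CPM and had 2037, 552, 405, and 337 CPM in the others. Elastin (*Eln*), the elastic fibre protein of arteries, was lowest in the ranges of 1 to 3% (66.3 and 77.1 CPM) and highest at 4% or more (264 CPM). The collagen gene *Col3a1* had 106 CPM under 1%, 3.82 CPM at 2 to 3%, and 47.3 CPM at 4% or more. The potassium channel gene *Kcna5* peaked between, with 23.1, 72.2, 80.4, 62.3, and 47.3 CPM. These ranges were cut from a value the rule used, and the lowest held 16 to 37 cells per mouse, so their levels are a description. Of all VSMCs, 661 (27.7%) held more than 3 UMIs of the genes of the pericyte rule, 22.9 to 28.4% of the VSMCs in 5 libraries and 45.9% in TgAppArcSwe 2.

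At the edge of the rule, 39 VSMCs held 10 to 12 contractile UMIs, and 51 cells just outside it held 7 to 9. Their levels were alike for *Tpm2* (459 CPM inside and 394 outside), *Pln* (66.8 and 65.7), and *Cnn1* (0 in both). *Vtn* had 6419 and 8060 CPM. In the 2349 cells with 13 or more UMIs, *Vtn* was at 674 CPM and *Tpm2* at 4468 CPM. In the cells nearest the edge *Vtn* thus lay above *Tpm2*, against the label VSMC. The same held beyond the edge for the 158 VSMCs in which the genes of the rule made up under 1% of the UMIs, where *Vtn* averaged 3423 CPM and *Tpm2* 791 CPM and *Vtn* was higher in all 6 mice. From 1% upwards *Tpm2* had the higher mean.

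The first question between the genotypes was whether VSMCs were captured in the same number. They made up 6.95%, 5.99%, and 5.57% of filtered cells in the WT mice and 4.82%, 7.23%, and 4.41% in the TgAppArcSwe mice. The groups overlapped, at 6.17% ± 0.705 and 5.48% ± 1.53 (SD, n = 3; exact two-sided permutation test, p = 0.6, where 3 mice against 3 allow no p under 0.1). The difference of -0.686 percentage points was -0.985 without WT 3, -0.147 without TgAppArcSwe 3, -0.297 without WT 1, and -1.56 without TgAppArcSwe 2, the mouse with the highest share. When the 661 VSMCs rich in pericyte genes were left out, the shares were 5.22%, 4.38%, and 4.30% in the WT mice and 3.45%, 3.91%, and 3.17% in the TgAppArcSwe mice, which did not overlap and differed by -1.13 percentage points (two-sided exact permutation p = 0.1, as small as 3 mice against 3 allow). Per 100 pericytes there were 1437, 1629, and 711 VSMCs in the WT mice and 1244, 1012, and 522 in the TgAppArcSwe mice, a difference in means of -333 (two-sided exact permutation p = 0.4). The values overlapped, and the lowest of each genotype was replicate 3. This difference was -607 without WT 3 and -131 without TgAppArcSwe 3.

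**Figure D3:**
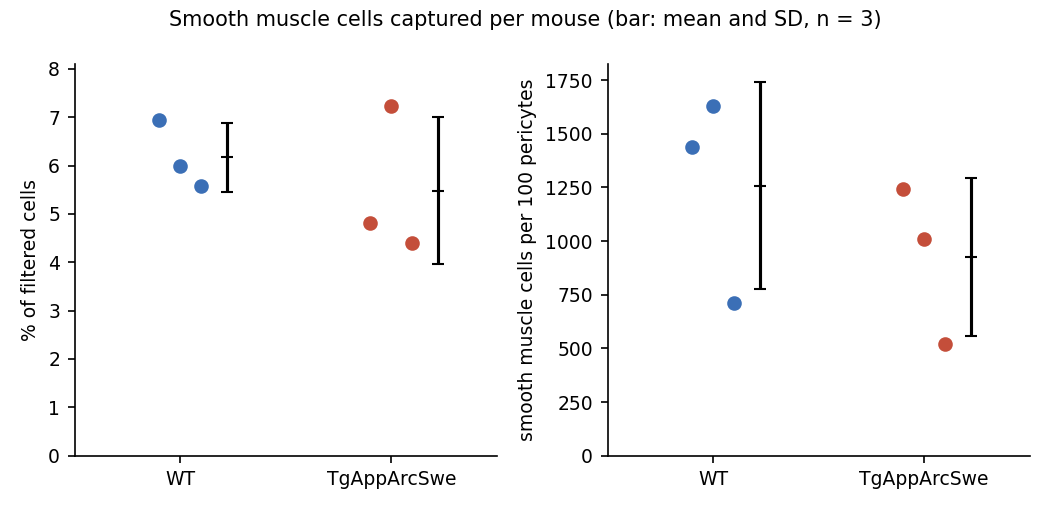
VSMCs as % of filtered cells (left) and per 100 pericytes (right), with each point 1 mouse and the bar the mean and SD of 3 mice. The means were 6.17% in WT and 5.48% in TgAppArcSwe mice on the left and 1259 and 926 on the right, and the genotypes overlap in both.

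The second question was whether VSMCs of TgAppArcSwe mice differed in expression. Of 9937 genes tested, 0 (0% called) had an adjusted p under 0.05 in edgeR's quasi-likelihood test with Benjamini-Hochberg adjustment, and the smallest adjusted p was 0.669. At an unadjusted p under 0.05 there were 465 genes (4.68%), 259 higher (2.61%) and 206 lower (2.07%) in TgAppArcSwe mice. DESeq2 called 1 of 9936 genes (0.0101%), *Mgp*, and edgeR with no filter on low counts called 75 of 17621 (0.426%). Between the 5th and the 95th percentile, log2 fold changes lay between -0.37 and 0.44. With its filter on low counts, edgeR thus gave no gene past the threshold in the VSMC sums of 3 mice per genotype. The values below describe genes that did not pass in that fit.

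Contractile genes had log2 fold changes of both signs between the genotypes, which is a description since the rule used 4 of them. *Acta2* had 13196, 11854, and 11628 CPM in WT and 12622, 11274, and 12872 CPM in TgAppArcSwe mice (log2 fold change 0.02 ± 0.17 SE). *Tagln*, *Tpm2*, and *Pln* had log2 fold changes of 0.04, 0.08, and 0.04, and the genotypes overlapped for all 4 genes. *Myl9* had 4878, 4847, and 4712 CPM in WT and 5108, 4934, and 5562 CPM in TgAppArcSwe mice without overlap (log2 fold change 0.13 ± 0.15 SE). The rule put a floor on the summed UMIs of *Acta2*, *Tagln*, *Myh11*, and *Myl9* in every VSMC, so the values of these 4 genes are a description, and *Tpm2* and *Pln* were not used by it. The signs for *Acta2*, *Tagln*, and *Pln* flipped under some other settings. *Myh11* had 4589, 4482, and 3598 CPM in WT and 3528, 3791, and 3378 CPM in TgAppArcSwe mice (log2 fold change -0.23 ± 0.16 SE). WT 3 lay with the TgAppArcSwe mice, and without WT 3 the log2 fold change was -0.36 (adjusted p = 0.226 from edgeR). After thinning to 1000 UMIs, *Myh11* was seen in 94.4% ± 0.701 of the VSMCs of WT and 89.8% ± 2.07 of those of the other genotype (SD, n = 3; 99.4% and 97.9% without thinning), a description only since the rule used this gene. Over the 28 contractile genes, those 4 included, 11 were higher and 17 lower with a median log2 fold change of -0.02, beside 4973 higher and 4964 lower and a median of 0.00 over all genes tested.

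Of these contractile genes, *Ppp1r12b*, a subunit of the phosphatase that relaxes smooth muscle, had the smallest p. Its level was 549, 562, and 631 CPM in WT and 473, 456, and 467 CPM in TgAppArcSwe mice (log2 fold change -0.30 ± 0.12 SE, unadjusted p = 0.0289, adjusted p = 0.972 from edgeR). The 3 WT values all lay above the others. Such a pattern, with all WT values above all TgAppArcSwe values, occurred in 578 of all genes tested (5.82%), the reverse in 440 (4.43%), and either in 1018 (10.2%). Among the 28 contractile genes 2 had the first and 2 the second.

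Genes that set vascular tone were described next. Of 24 genes of calcium handling and ion channels 11 were higher and 13 lower (median -0.01), with 0 at an unadjusted p under 0.05. The calcium pump gene *Atp2a2*, the partner of *Pln*, had a log2 fold change of -0.10. Of 20 vasoactive receptor and cyclic nucleotide genes 10 were higher and 10 lower (median -0.02), with 3 without overlap and higher in WT mice, beside 5.82% of all genes tested, and 0 the other way. The serotonin receptor gene *Htr1b*, which mediates constriction of cerebral arteries, had 29.5, 31.9, and 33.1 CPM in WT and 24.2, 24.8, and 23 CPM in TgAppArcSwe mice (log2 fold change -0.37, unadjusted p = 0.0315, adjusted p = 0.972 from edgeR). It was 1 of those 3 genes. Of 18 transcription factors of smooth muscle 10 were higher and 8 lower (median 0.01), and *Ebf1*, the most abundant of them at 1386 CPM, had a log2 fold change of 0.01. Of 9 genes of *Notch3* and PDGF signalling 6 were higher and 3 lower (median 0.06), with *Notch3* itself at -0.06.

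Amyloid-related genes were described because the model deposits amyloid-β in vessel walls. Of 21 genes of amyloid precursor processing and clearance 11 were higher and 10 lower (median 0.01). *Cst3*, which encodes the amyloid-binding cystatin C, was the most abundant with 2195 CPM and a log2 fold change of 0.14. The smallest p belonged to *Adam10*, an α-secretase, at 33.7, 38.7, and 52.5 CPM in WT and 33.9, 27.1, and 30.7 CPM in TgAppArcSwe mice (log2 fold change -0.40, unadjusted p = 0.0406, adjusted p = 0.972 from edgeR). Here WT 1 lay within the TgAppArcSwe range.

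Genes without overlap were limited to those with at least 5 counts in each mouse of the higher genotype. The 10 of them with the smallest p were all higher in TgAppArcSwe mice. *Mgp* (chr6:136872435-136875823, minus strand, GRCm38) had 836, 513, and 810 CPM in WT and 1213, 1352, and 1245 CPM in TgAppArcSwe mice. The log2 fold change was 0.84 ± 0.17 SE (unadjusted p = 0.000352, adjusted p = 0.669 from edgeR and 0.00942 from DESeq2). The lowest TgAppArcSwe value was above the highest WT value, and the log2 fold change was 0.90 without WT 3 and 0.85 without TgAppArcSwe 3. *Mgp* UMIs were found in 131 to 348 VSMCs of each library, and the 3 cells with the most held 16.4 to 46.2% of them. The share of thinned VSMCs with an *Mgp* UMI was 28.4% ± 4.07 in WT and 30.8% ± 2.05 in TgAppArcSwe mice (SD, n = 3; exact two-sided permutation test, p = 0.5; 59.3% and 67.2% without thinning, p = 0.3). Thinned to 2000 UMIs, the shares were 37.8% ± 2.56 and 45.9% ± 2.10 (two-sided exact permutation p = 0.1, as small as 3 mice against 3 allow). By contractile share, *Mgp* in the cells under 1% was 5975, 4511, and 3335 CPM in WT and 6348, 7182, and 11138 CPM in TgAppArcSwe mice, without overlap, and in the other 4 ranges the genotypes overlapped. Cells under 1% made up 6.03%, 4.68%, and 7.25% of VSMCs in WT and 6.28%, 12.2%, and 6.27% in TgAppArcSwe mice. These are the cells in which *Vtn* lay above *Tpm2* in all 6 mice, against the label VSMC. As the mean of 6 mice, an *Mgp* UMI was seen in 50.5% of pericytes and 29.6% of VSMCs thinned to 1000 UMIs. Without thinning the shares were 61.6% and 63.3%.

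*Rgcc*, a regulator of the cell cycle induced by complement, had 36.3, 44.5, and 42.6 CPM in WT and 64.6, 97.8, and 69.8 CPM in TgAppArcSwe mice (log2 fold change 0.91 ± 0.17 SE, adjusted p = 0.669 from edgeR). *S100a4*, a calcium-binding protein found in VSMCs that have left the contractile state, had 32, 9.42, and 14.2 CPM in WT and 47.0, 58.0, and 47.9 CPM in TgAppArcSwe mice (log2 fold change 1.42 ± 0.31 SE, adjusted p = 0.669 from edgeR). The 3 VSMCs with the most *S100a4* UMIs held 39.6 to 88.9% of them in each library, and without WT 1 this gene alone was called (log2 fold change 2.12, adjusted p = 0.00925 from edgeR). Also in the set were the metalloreductase gene *Steap4* (log2 fold change 1.31), the phosphatase gene *Dusp5* (1.70), *Zswim4* (1.18), and *Efr3b* (1.17). Together with 2 clock genes and *Plvap* they completed it. No gene of the set passed in edgeR with all mice and its filter on low counts. With no such filter every gene of the set was among the 75 called (0.426%). Adjusted p from edgeR then ran from 1.88e-10 (*S100a4*) to 0.00913 (*Efr3b*). As the set was picked by p and overlap in these same counts, this second fit is not separate evidence for it. *Plvap*, which encodes the diaphragm protein of fenestrated endothelium, rested on 5, 4, and 2 UMIs in WT and 14, 18, and 20 in TgAppArcSwe mice.

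The 2 clock genes were *Dbp* and *Nr1d1*, outputs of the circadian clock. *Dbp* had 17.9, 18.8, and 16.6 CPM in WT and 36.7, 30.9, and 30.3 CPM in TgAppArcSwe mice (log2 fold change 0.90 ± 0.18 SE, adjusted p = 0.669 from edgeR). *Nr1d1* had 39.3, 31.9, and 36.0 CPM in WT and 64.2, 72.3, and 48.7 CPM in TgAppArcSwe mice (log2 fold change 0.78 ± 0.17 SE, adjusted p = 0.669 from edgeR). For both genes the genotypes were apart. Of 9 clock output genes tested 7 were higher and 2 lower, with a median log2 fold change of 0.46. Of these 9, 5 were without overlap and higher in TgAppArcSwe mice, beside 4.43% of all genes tested, and 5 further clock genes were all lower with a median of -0.08. These were *Arntl* (-0.21), *Clock*, and *Npas2* of the activating limb and the repressor genes *Nfil3* and *Cry1*. None passed the edgeR threshold with the filter on low counts. With no such filter *Dbp* and *Nr1d1* passed (adjusted p = 0.00767 and 0.00155 from edgeR), where 0.426% of all genes were called. The time of day at which each mouse was killed was not given in the sources used here, so it cannot be told apart from the genotype.

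**Figure D4:**
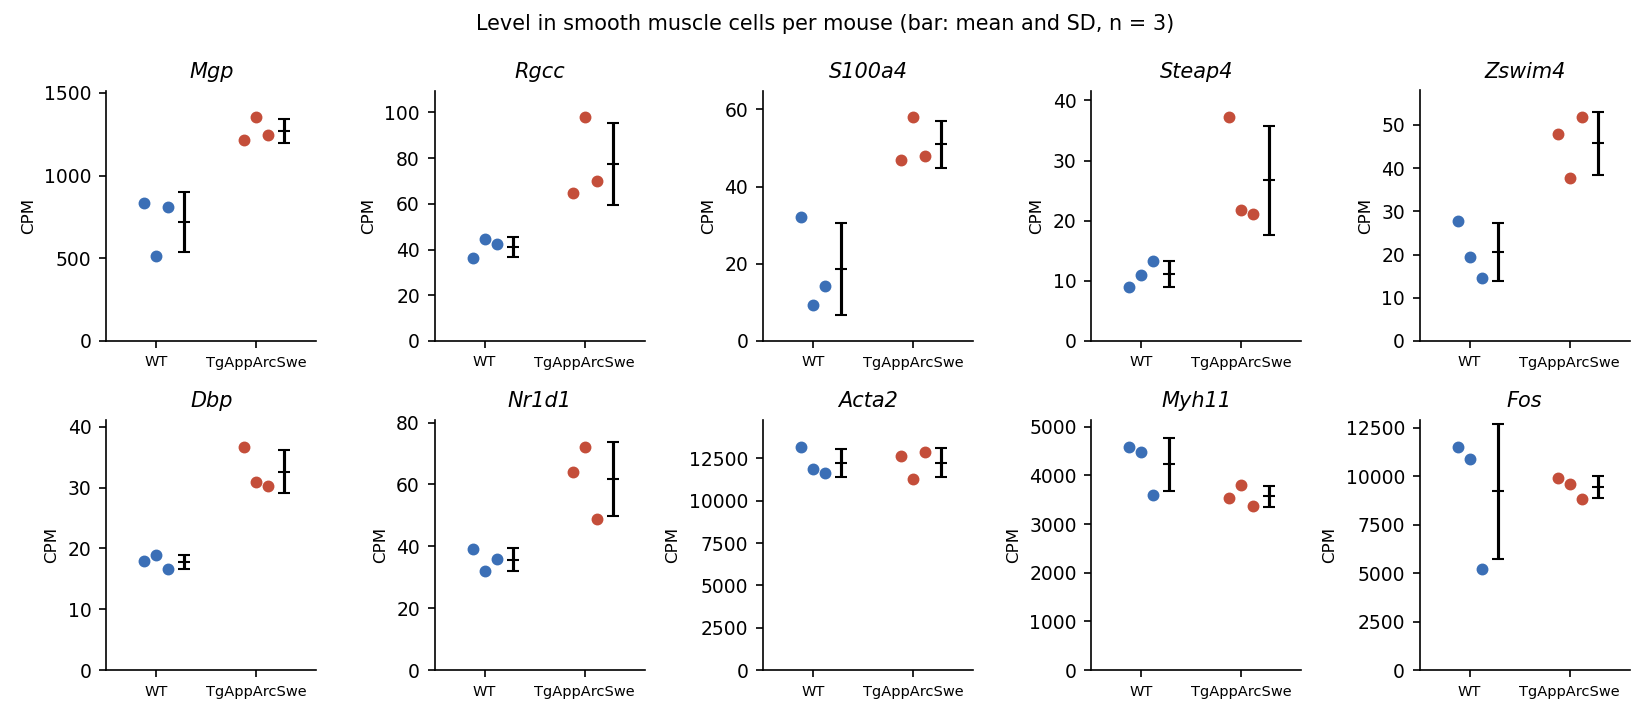
CPM of 10 genes in the VSMCs of each mouse, with points for mice and bars for the mean and SD of 3. *Mgp*, *Rgcc*, *S100a4*, *Steap4*, *Zswim4*, *Dbp*, and *Nr1d1* do not overlap between the genotypes, *Acta2*, *Myh11*, and *Fos* overlap, and WT 3 has the lowest *Fos* value of 5207 CPM.

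Lists of activation had more genes higher than lower. Of 12 genes of the synthetic phenotype, the state in which VSMCs make matrix and divide, 11 were higher (median 0.34), with *Mgp* and *S100a4* among them. *Vim*, which encodes the filament protein vimentin and was the most abundant with 2626 CPM, had a log2 fold change of 0.06. Of 17 interferon response genes 13 were higher (median 0.19), and *Ifitm3*, an antiviral membrane protein, had 245, 322, and 270 CPM in WT and 391, 344, and 365 CPM in TgAppArcSwe mice (log2 fold change 0.42, unadjusted p = 0.0118, adjusted p = 0.972 from edgeR). The MHC class I list, which presents antigen, had 11 of 11 genes higher (median 0.29) with 0 at an unadjusted p under 0.05. Its summed level was 648, 649, and 657 CPM in WT and 796, 604, and 914 CPM in TgAppArcSwe mice. TgAppArcSwe 2 thus lay below every WT mouse. The interferon sum was 732, 794, and 811 CPM in WT and 930, 792, and 955 CPM in TgAppArcSwe mice, so the genotypes overlapped in both sums. Of 23 matrix genes 11 were higher and 12 lower (median -0.03).

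Markers of some other cells were also higher in these VSMC sums, with 0 of them called by edgeR with its filter on low counts. With no such filter the 75 genes called (0.426%) included *C1qb* and *Ctss* of microglia and *Kcnj8* of pericytes. *Cd74*, *Dcn*, *Slc1a2*, *Meg3*, *Hbb-bs*, and *Ttr* of the other marker lists were called there too. Not all of these were higher in TgAppArcSwe mice, as *Ttr* was lower in the filtered fit (-0.66). *Dcn* had 4, 4, and 166 UMIs in WT and 23, 23, and 4 in TgAppArcSwe mice. The 166 UMIs of WT 3 came from 2 VSMCs. The values that follow are from the filtered fit. All 8 endothelial genes and all 7 microglial genes tested were higher, with medians of 0.49 and 0.67 and 0 at an unadjusted p under 0.05, and their sums were largest in WT 3 and TgAppArcSwe 3. The microglial sum was 138, 151, and 517 CPM in WT and 248, 161, and 650 CPM in TgAppArcSwe mice, which overlapped. Of 9 pericyte genes 8 were higher (median 0.27), among them *Vtn* at 676, 643, and 549 CPM in WT and 717, 1245, and 737 CPM in TgAppArcSwe mice (log2 fold change 0.54, unadjusted p = 0.0197, adjusted p = 0.972 from edgeR). The pericyte sum was 3018, 3103, and 2835 CPM in WT and 3237, 4465, and 3087 CPM in TgAppArcSwe mice. It overlapped by 1 mouse, and TgAppArcSwe 2 was highest. Of 4 fibroblast genes 2 were higher and 2 lower (median -0.04), and the choroid plexus gene *Ttr* (-0.66) and the oligodendrocyte gene *Cnp* (-0.11) were lower. Higher were 3 of 3 erythroid genes (median 0.33), *Meg3* of the neuron list (1.02), and *Cd163* of perivascular macrophages (0.08). The part of these transcripts in the genes and lists above was not tested. Without the 661 VSMCs rich in pericyte genes, the log2 fold change of *Steap4* was 0.13 in place of 1.31, that of *Rgcc* 0.39 in place of 0.91, and that of *Dbp* 0.57 in place of 0.90. *Mgp* was then at 1.04, *S100a4* at 1.55, and *Nr1d1* at 0.76. *Mgp* was at 0.55 when cells with microglial UMIs were kept, and *Rgcc* at 0.59 when cells with any endothelial UMI were left out.

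**Figure D5:**
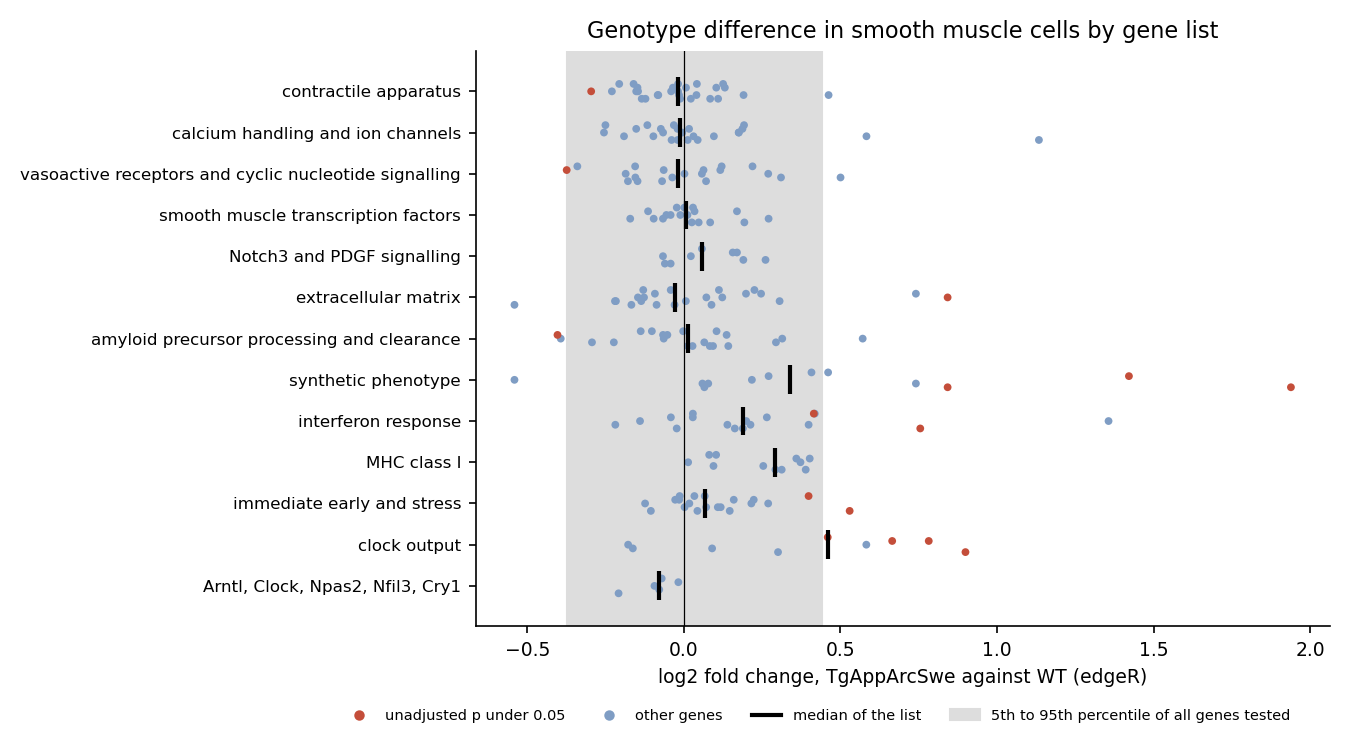
Log2 fold change of TgAppArcSwe against WT mice in VSMCs for the members of 13 gene lists, from edgeR. Each point is a gene, red where its unadjusted p is under 0.05, the bar is the list median and the grey band the 5th to 95th percentile of all 9937 genes, -0.37 to 0.44. The contractile list centres on -0.02 and the clock output list on 0.46.

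Of 20 immediate early and stress genes 15 were higher and 5 lower (median 0.07), with 2 at an unadjusted p under 0.05, both higher (beside 2.61% of all genes tested) and both heat shock genes (*Hspa1a*, 0.40, and *Hspa1b*, 0.53), near-identical copies whose split of reads is uncertain. *Fos* had 11524, 10904, and 5207 CPM in WT and 9908, 9617, and 8828 CPM in TgAppArcSwe mice, and the sum of 20 such genes was 24045 CPM in WT 3 and between 42941 and 53568 CPM in the others. *Jun* and *Junb* were lowest in WT 3 as well. Without WT 3, 1047 genes had an unadjusted p under 0.05, and 0 were called by edgeR (smallest adjusted p = 0.10).

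Whether a genotype difference was particular to VSMCs was tested against pericytes of the same mice, with the mouse as a block. Of 9261 genes, 352 had an unadjusted p under 0.05 (3.80%) and 1 was called (0.0108%), *Ccl19* (chr4:42754525-42756577, minus strand, GRCm38), a chemokine that the study lists with *Apoe*, *Colec11*, and *Col3a1* as a marker of smooth muscle of pial veins. VSMCs held 6, 30, and 7 *Ccl19* UMIs in WT and 41, 67, and 21 in TgAppArcSwe mice, and pericytes held 6, 27, and 1 against 3, 2, and 4. In pericytes alone 0 of 1886 genes were called by edgeR, and 61 had an unadjusted p under 0.05 (3.23%). The genotype effect in VSMCs minus that in pericytes was 3.91 ± 0.72 SE on the log2 scale (adjusted p = 0.0255 from edgeR). The 2 fitted effects ran in opposite directions, higher in VSMCs and lower in pericytes of TgAppArcSwe mice, and the WT 2 library held 27 of the pericyte UMIs. In VSMCs alone the genotypes overlapped in CPM, with 2.56, 15.7, and 3.31 in WT and 19.1, 50.4, and 8.05 in TgAppArcSwe mice (log2 fold change 1.78 ± 0.68 SE, adjusted p = 0.972 from edgeR). The 3 cells with the most *Ccl19* UMIs held at least 52.2% of them in each library, and the call was lost without WT 2 (adjusted p = 1.00) and without TgAppArcSwe 2 (adjusted p = 0.0891 from edgeR).

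VSMCs with 2 or more UMIs of *Colec11* and *Ccl19* together numbered 1, 2, and 1 in WT and 5, 8, and 4 in TgAppArcSwe mice. As shares of VSMCs these were 0.232%, 0.585%, and 0.220% (exact binomial 95% intervals 0.00587 to 1.29%, 0.0709 to 2.10%, and 0.00556 to 1.22%) and 1.26%, 4.65%, and 0.678% (0.409 to 2.91%, 2.03 to 8.96%, and 0.185 to 1.73%). The genotypes did not overlap (two-sided exact permutation p = 0.1, as small as this design allows), and the intervals cover the counting of cells in single libraries only. *Ccl19*, which chose these cells, is also the gene called above. These 21 cells lay low in contractile UMIs, with medians of 13 to 65 per library against 133 to 222 in all VSMCs. *Apoe* and *Col3a1*, which other cells also carry, had log2 fold changes of 0.29 and 0.23 with overlap.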

How the data were processed

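The authors made the deposited counts with Cell Ranger 7.0.0 on mm10, per the submitters' processing notes. They are raw UMI counts per gene and barcode, not normalized, with 26436229 to 59161203 UMIs per library. Cells and limits were as given above. Doublets were not called separately, apart from the endothelial and microglial limits. The replicate was the mouse. UMIs were summed per mouse over VSMCs, and pericytes, and the genotypes were compared with edgeR 4.0.16 (filterByExpr, TMM, glmQLFit, and glmQLFTest, genotype as the only term) in R 4.3.3 with Benjamini-Hochberg adjustment, and with DESeq2 1.42.0 as an alternative. Mitochondrial and ribosomal protein genes, Rik genes, and pseudogenes did not enter the tests. SE is the standard error of the log2 fold change. The cell type by genotype term was fitted with the mouse as a block. For shares, two-sided exact permutation tests over mice were used. Thinning used a fixed seed. The test was checked on simulated counts. Python 3.11.15, numpy 2.4.6, scipy 1.17.1, pandas 2.3.3, and matplotlib 3.10.9 were used. Gene positions are from GENCODE and promoters from RefSeq, both on GRCm38.

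The members, gene lists, and settings were chosen with earlier results of these data known. Genes were named by a rule. For the genotype these were called genes without overlap, filled up to 10 with the smallest p among genes without overlap and with at least 5 counts in each mouse of the higher genotype. For cell types these were the 20 highest levels, and the 20 largest and 10 smallest ratios at 100 CPM or more. In each list the 3 most abundant genes and that of smallest p were taken, together with all markers, genes of the limits, pial vein genes, and label checks. Of these, the ones that carry a result are printed. *Cacna1c*, *Ednra*, *Cald1*, *Vcl*, and genes in the contractile ranges were chosen after their values were seen. The level of 1 marker gene is not reported here.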

Additional observations from a re-analysis of the deposited data

Results flagged for a closer look

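*Ccl19* stood out because its genotype effect differed between VSMCs and pericytes by a log2 value of 3.91 (adjusted p = 0.0255 from edgeR). The value was lowest, at 1.01, when the contractile limit was 20 UMIs, and 2.04 when it was 5, where cells between the limits passed from VSMCs to pericytes or back (adjusted p = 1.00 in both from edgeR). It was 4.16 with no mouse block (adjusted p = 1.000 from edgeR), 3.00 without WT replicate 2, and 3.30 without TgAppArcSwe replicate 2. Both the VSMC and the pericyte sums of each mouse came from 1 library. The part of single cells, of the rule, and of genotype in this value was not tested.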

How the results depend on the processing

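The difference in VSMC share and that per 100 pericytes kept their direction in all 13 alternatives of each, where 3 mice against 3 allow no p under 0.1, at -1.56 to -0.147 percentage points and at -667 to -131. The count of genes changed, 0, was 1 with DESeq2, 75 with no filter on low counts, and 0 to 1 when each replicate was left out, and 0 in the other alternatives. Of the 75 genes, 64 were higher and 11 lower, and the cause was not tested. The contractile median of -0.02 was -0.10 with the stricter filter on cells (at least 1000 genes and under 5% mitochondrial UMIs), -0.06 to -0.02 when each replicate was left out, and at most 0.01 otherwise. *Acta2*, *Tagln*, and *Pln* reversed to log2 fold changes of -0.0496, -0.0509, and -0.0163 with that filter. When each replicate was left out, *Acta2* ranged from -0.0455 (without WT replicate 3) to 0.0935, *Tagln* from -0.0110 (without TgAppArcSwe replicate 1) to 0.116, and *Pln* from -0.0112 (without WT replicate 2) to 0.0930. *Acta2* was also below 0 without TgAppArcSwe replicate 1 or 3, *Tagln* without WT replicate 3, and *Pln* without TgAppArcSwe replicate 1. In the same way *Tpm2* ranged from 0.0331 to 0.164, *Myl9* from 0.0763 to 0.174, and *Myh11* from -0.363 to -0.155.

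The 1 gene whose effect differed from pericytes became 4 with no filter on low counts, 0 with no mouse block, 0 with at least 20 contractile UMIs, 4 with at least 5, and 0 to 13 when each replicate was left out (13 without TgAppArcSwe replicate 3, 3 without WT replicate 1, WT replicate 3, or TgAppArcSwe replicate 1, and 0 without WT replicate 2). *Steap4* was at 0.81 with at least 20 contractile UMIs and at 0.70 with a limit scaled to depth, in place of 1.31. *Mgp* stayed higher in TgAppArcSwe mice in all 18 alternatives (0.55 to 1.05). Same-numbered mice correlated at 0.069, 0.080, and 0.22 in their deviations. Replicate 3 of either genotype correlated at -0.16 to -0.11 with the differently numbered mice of the other genotype. WT 1 with TgAppArcSwe 2 and WT 2 with TgAppArcSwe 1 correlated at 0.067 and 0.080. Whether the numbers mark shared handling was not tested. With the replicate block 0 genes were called (smallest adjusted p = 0.0587 from edgeR) and 596 had an unadjusted p under 0.05. Alternatives that keep cells with microglial UMIs were added after seeing the data. The 277 pericytes, 17 to 113 per mouse, limit every value set against them, and 1886 genes could be tested in pericytes alone, with 0 called by edgeR and 61 at an unadjusted p under 0.05.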
